A study of Mus musculus with 24 samples.

Results

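Gluconeogenesis is the making of glucose from lactate, amino acids and glycerol, and the liver is its main site. A list of 10 of its genes and of genes that glucagon controls was followed across the livers of 24 male C57Bl/6J mice: Pck1, G6pc, Fbp1, Pcx, Tat, Sds, Slc37a4, Gcgr, Aqp9 and Gk. Genes were found by exact name among the array's 56605 gene probes. 9 of the 10 were found, with 12 probes, and all 12 passed the filter on dim probes, which left 21331 genes to test. No probe carries the name Gk, the gene of glycerol kinase. Its older symbol is Gyk, listed as a synonym in RefSeq's gene table, and the array holds 3 probes named Gyk. These were added by that name after the rule had been applied, so Gyk is described beside the others and stands outside the counts over 9 genes.

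The mice formed 4 groups of 6, and 1 liver array was run per mouse. LWT mice had hepatocytes that express PPARα, a nuclear receptor activated by fatty acids, and LKO mice had hepatocytes without it, as the series title states. Mice of each genotype were given either CL316243 at 3 mg/kg, an agonist of the beta3 adrenergic receptor, or its vehicle of 0.5% carboxymethyl cellulose. Both were given by gavage at Zeitgeber time (ZT) 10 h, counted from lights on, and all livers were taken at ZT 16 h, in the dark phase. All 4 groups had standard rodent diet and water at all times. The labels do not give the age of the mice, the promoter that drove the deletion or the part of Ppara that was removed. They do not say whether LWT and LKO mice were littermates.

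Glucose production from small precursors reverses glycolysis except at a few one-way steps, which have enzymes of their own. Pyruvate carboxylase (Pcx) and phosphoenolpyruvate carboxykinase (Pck1) open the route, fructose bisphosphatase (Fbp1) comes next, and glucose-6-phosphatase (G6pc) with its transporter (Slc37a4) releases free glucose. Tyrosine aminotransferase (Tat) and serine dehydratase (Sds) feed amino acid carbon into the route, and the aquaglyceroporin Aqp9 and glycerol kinase feed glycerol into it. Glucagon acts on the hepatocyte through its receptor, Gcgr, which raises cyclic AMP. Cyclic AMP activates CREB, a factor that binds the cyclic AMP response element (CRE). Beta3 agonists act on adipocytes and release fatty acids and glycerol into the blood.

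The 250 bases before the start site were read from RefSeq (build GRCm38.p6) for 9 of the 10 genes, which gave 13 windows since some genes have several starts. Each window was searched on both strands for the full CRE (TGACGTCA), for its core (ACGTCA, which lies within the full element) and for the direct repeat bound by PPARα, which is AGGTCA, then 1 base of any kind, then AGGTCA again. The promoters of Pck1 and Slc37a4 are shown because they held the only matches, that of G6pc because its product works with that of Slc37a4, and that of Gk because its signal differed most between groups. Capitals mark the CRE core on either strand. The windows are chr2:173152823-173153072 (+ strand) for Pck1, chr9:44396696-44396945 (+) for the first window of Slc37a4, chr11:101367466-101367715 (+) for G6pc and chrX:85776820-85777069 (- strand) for Gk.
Pck1: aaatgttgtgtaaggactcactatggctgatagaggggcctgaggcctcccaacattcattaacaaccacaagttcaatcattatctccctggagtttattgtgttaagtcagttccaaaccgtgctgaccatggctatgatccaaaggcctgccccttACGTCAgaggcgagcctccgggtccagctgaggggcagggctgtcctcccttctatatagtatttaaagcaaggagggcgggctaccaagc
Slc37a4: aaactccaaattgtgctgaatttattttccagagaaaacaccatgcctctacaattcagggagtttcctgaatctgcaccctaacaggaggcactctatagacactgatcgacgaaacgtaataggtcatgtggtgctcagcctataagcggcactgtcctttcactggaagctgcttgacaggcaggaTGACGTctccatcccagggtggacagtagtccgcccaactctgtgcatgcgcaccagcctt
G6pc: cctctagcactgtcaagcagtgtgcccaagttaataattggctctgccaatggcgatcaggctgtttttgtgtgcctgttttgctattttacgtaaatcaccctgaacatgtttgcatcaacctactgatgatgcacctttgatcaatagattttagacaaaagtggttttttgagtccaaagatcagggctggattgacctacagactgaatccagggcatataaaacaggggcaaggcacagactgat
Gk: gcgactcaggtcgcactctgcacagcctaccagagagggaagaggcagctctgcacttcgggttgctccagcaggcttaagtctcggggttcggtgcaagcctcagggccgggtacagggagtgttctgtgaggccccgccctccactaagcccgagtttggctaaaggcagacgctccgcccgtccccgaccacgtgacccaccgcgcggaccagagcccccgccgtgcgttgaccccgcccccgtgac
The match in Pck1 spans bases 91 to 86 before the start. The match in Slc37a4 lies on the opposite strand at bases 61 to 56, and the second window of Slc37a4 overlaps the first and holds this site at bases 214 to 209. Of 32851 promoter windows of that length, 6.47% held the core, 1.55% the full CRE and 0.0335% the PPARα repeat. No window of these genes held the full CRE or that repeat. A looser repeat with AGGNCA in both places, held by 0.338% of promoters, was not found in them either.

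Signal on each array is given as log2 of the processed intensity minus the array's 75th percentile, so 0 is that percentile and 1 unit is a doubling. The 75th percentile was 397.4 to 577.7 over the 24 arrays, 26985 to 34202 probes were well above background, and no spot was saturated. Arrays lay on 3 slides of 8 with 2 mice of each group on each slide, and slide was called for 49 genes and row on the slide for 0 genes, none of them in the list. The tissue matched its label: all 5 tested hepatocyte markers (Alb, Ttr, Apoa1, Apob and Serpina1a) were well above background on every array, with a summed level of 2531 to 3232 times the 75th percentile. In whole liver, fewer cells of a type and less RNA per cell cannot be told apart. LKO CL316243 replicate 3 stood apart for several of the genes below, and it also had the highest summed level of the 5 neutrophil markers of all 24 mice (47.1, against 3.44 to 19.5 in the other mice of its group). The array of this mouse also had the lowest 75th percentile (413.4) and the fewest probes well above background (27921) of its group. Values without this mouse are given beside the results of these genes that it moved most.

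CL316243 moved the same 4 of the 9 genes in both genotypes and in the same directions. Pcx rose, and Slc37a4, Gcgr and Aqp9 fell (limma, adjusted p under 0.05). Pck1, G6pc, Fbp1, Tat and Sds did not pass in either genotype. Among all 21331 genes tested, 38.3% were called in LWT and 40.3% in LKO, so 4 of 9 is near the share of genes at large. By direction, 18.9% of all genes were higher and 19.4% lower in LWT, and 20.9% higher and 19.4% lower in LKO. The median log2 difference of the 9 genes was 0.07 in LWT and 0.03 in LKO, against 0.01 and 0.03 for all genes. The treated and untreated mice did not overlap for 2 of the 9 genes in each genotype, where 20.4% (LWT) and 20.8% (LKO) of all genes did not.

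None of the 9 genes differed between LKO and LWT under vehicle, where 1.18% of all genes were called, nor under CL316243, where 15.9% were (7.74% higher in LKO, 8.17% lower). At an unadjusted p under 0.05 the counts were 0 and 1, the latter being G6pc. In the fit over 32037 probes, which is used below for the second probes of a gene, 37.6% were called with CL316243 in LWT, 41% in LKO, 1.11% and 15.4% between genotypes under vehicle and CL316243, and 5.96% for the interaction. The effect of CL316243 did not differ between genotypes for any of the 9 by the interaction test in limma, with 0 also at an unadjusted p under 0.05 and 5.41% of all genes called (2.17% higher in LKO, 3.24% lower). Without LKO CL316243 replicate 3, 3 of 9 genes were called in LKO, and 1 gene, Slc37a4, was called between genotypes under CL316243. Gyk passed every one of these tests except that between genotypes under vehicle.

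**Figure D1:**
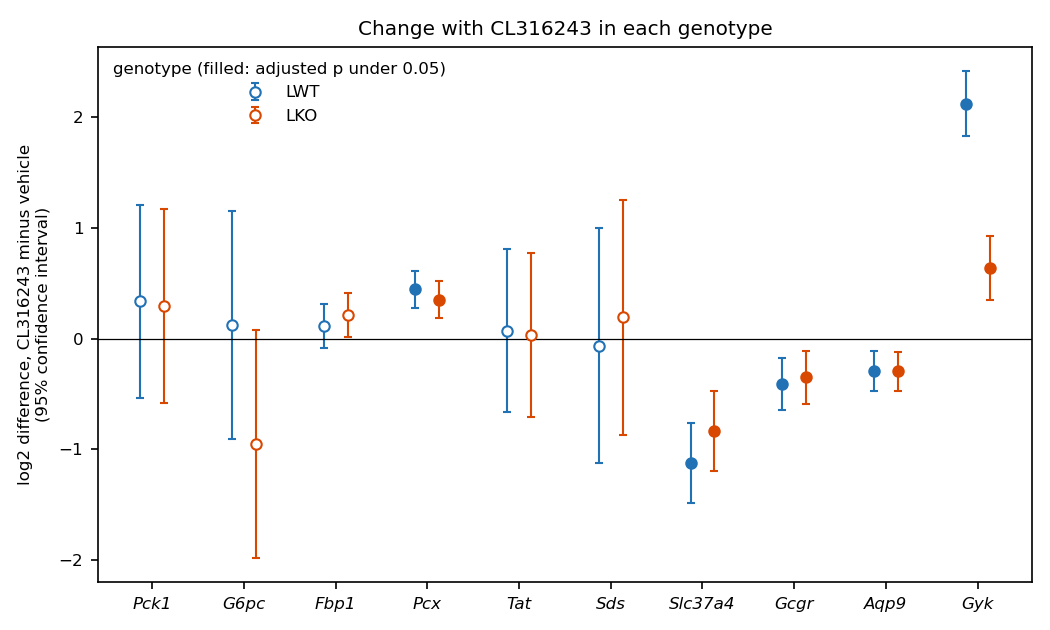
Log2 difference between CL316243 and vehicle (vertical axis) for each of the 9 genes and Gyk, in LWT (blue) and LKO (red), with 95% confidence intervals from the limma fit and filled points for an adjusted p under 0.05. Pcx and Gyk lie above 0 and Slc37a4, Gcgr and Aqp9 below 0 in both genotypes, and Gyk is the gene whose intervals for LWT and LKO lie apart.

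Among the enzymes of the route itself, Pcx was the gene that rose. Pyruvate carboxylase is mitochondrial and makes oxaloacetate from pyruvate, and its probe lies on chromosome 19 (4621610 to 4621669, plus strand, mm9 as for all probe positions here). Its log2 signal had a low, median and high of 6.19, 6.40 and 6.60 in LWT vehicle and of 6.66, 6.93 and 6.98 in LWT CL316243. In LKO the same values were 6.27, 6.35 and 6.48 with vehicle and 6.46, 6.77 and 6.85 with CL316243. The treated and untreated groups did not overlap in LWT, and in LKO 1 treated mouse lay within the vehicle range. The difference was 0.44 in LWT (SE 0.08, adjusted p 0.000177, 1.36-fold) and 0.35 in LKO (SE 0.08, adjusted p 0.00160, 1.28-fold), and all 6 treated mice of each genotype lay above the vehicle mean. Within single slides it was 0.38 to 0.54 in LWT and 0.24 to 0.53 in LKO. In order of mean level, both vehicle groups lay lowest and did not differ, LKO CL316243 lay above LWT vehicle by 0.29 (adjusted p 0.00667), and LWT CL316243 lay above LKO CL316243 by 0.15, which did not pass (adjusted p 0.237).

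Pck1, which turns oxaloacetate into phosphoenolpyruvate, varied widely within every group. Its low, median and high were 5.45, 6.81 and 8.14 in LWT vehicle, 6.55, 6.87 and 7.89 in LWT CL316243, 5.87, 6.86 and 7.59 in LKO vehicle, and 6.00, 7.28 and 7.86 in LKO CL316243. All 4 groups overlapped. The difference with CL316243 was 0.34 in LWT (95% interval -0.54 to 1.21, adjusted p 0.571) and 0.29 in LKO (-0.58 to 1.17, adjusted p 0.606). These intervals include a doubling, so changes of that size were not detectable with this spread. The LKO difference of Pck1 was 0.51 when LKO CL316243 replicate 3 was left out (adjusted p 0.377). Between slides the difference ran from -0.996 to 1.35 in LWT and from -0.23 to 1.07 in LKO.

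Fbp1, fructose bisphosphatase, was tightly measured and changed little. It was 8.71, 8.75 and 8.87 (low, median, high) in LWT vehicle, 8.65, 8.84 and 9.12 in LWT CL316243, 8.62, 8.77 and 8.89 in LKO vehicle, and 8.71, 8.94 and 9.34 in LKO CL316243. Treated and untreated mice overlapped in both genotypes. The difference was 0.11 in LWT (95% interval -0.09 to 0.31, adjusted p 0.393) and 0.22 in LKO (0.02 to 0.42, adjusted p 0.0798). Without LKO CL316243 replicate 4 the LKO value of Fbp1 was 0.27 and passed (adjusted p 0.0282), and without replicate 3 it was 0.14 (adjusted p 0.221). On slide 1 the LKO difference was 0.45, and on the other slides it was 0.10 and 0.09.

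G6pc, the catalytic subunit that frees glucose from glucose-6-phosphate, did not pass in any comparison. It was 4.09, 5.05 and 5.95 in LWT vehicle, 4.02, 5.25 and 5.87 in LWT CL316243, and 3.92, 4.94 and 5.72 in LKO vehicle. In LKO CL316243 it was 1.31, 4.43 and 5.06, and the lowest value came from replicate 3, with the next mouse at 3.80. The difference with CL316243 was 0.12 in LWT (95% interval -0.91 to 1.15, adjusted p 0.876) and -0.95 in LKO (-1.98 to 0.08, adjusted p 0.134). LKO minus LWT under CL316243 was -1.09 (-2.13 to -0.06, adjusted p 0.150), and all 6 LKO mice lay below the LWT mean. Within slides that value ran from -2.57 on slide 1, which holds replicate 3, to 0.61 on slide 2. Without replicate 3 the G6pc difference with CL316243 in LKO was -0.42 (adjusted p 0.409), and LKO minus LWT under CL316243 was -0.56 (adjusted p 0.337).

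Slc37a4 (probe on chromosome 9, 44210978 to 44211037), the transporter that carries glucose-6-phosphate into the endoplasmic reticulum for G6pc, had the largest fall among the called genes of the list in both genotypes. It was 6.51, 6.73 and 6.92 (low, median, high) in LWT vehicle and 5.21, 5.61 and 5.84 in LWT CL316243. In LKO it was 6.50, 6.66 and 7.05 with vehicle and 4.87, 5.97 and 6.31 with CL316243. Treated and untreated mice did not overlap in either genotype. The difference was -1.12 in LWT (SE 0.17, adjusted p 3.00e-05, 2.17-fold lower), and -0.83 in LKO (SE 0.17, adjusted p 0.000642, 1.78-fold lower). Slides gave -1.27 to -0.82 in LWT and -1.25 to -0.62 in LKO. Under CL316243 the LKO mice lay above the LWT mice by 0.28 (95% interval -0.08 to 0.64, adjusted p 0.320). Without LKO CL316243 replicate 3 that difference was 0.48 and passed (adjusted p 0.00708). The interaction was 0.29 (-0.22 to 0.80) and did not pass.

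A second, dimmer Slc37a4 probe lies 5242 bases away on chromosome 9 and was designed on a different transcript (AK040077). It was -3.48, -3.27 and -3.19 in LWT vehicle and -4.39, -4.10 and -3.71 in LWT CL316243, a difference of -0.77 (adjusted p 0.00822 in the fit over all probes). In LKO the probe was -3.50, -3.32 and -3.02 with vehicle and -5.04, -3.31 and -3.23 with CL316243, and the difference of -0.34 did not pass (adjusted p 0.236). Replicate 3 was again the lowest LKO CL316243 mouse, where the probe was not well above background. Without it the LKO difference was -0.05 (adjusted p 0.775). The difference between genotypes in this effect did not pass with all mice (0.44, adjusted p 0.490), and was 0.72 without replicate 3 (adjusted p 0.00799).

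**Figure D2:**
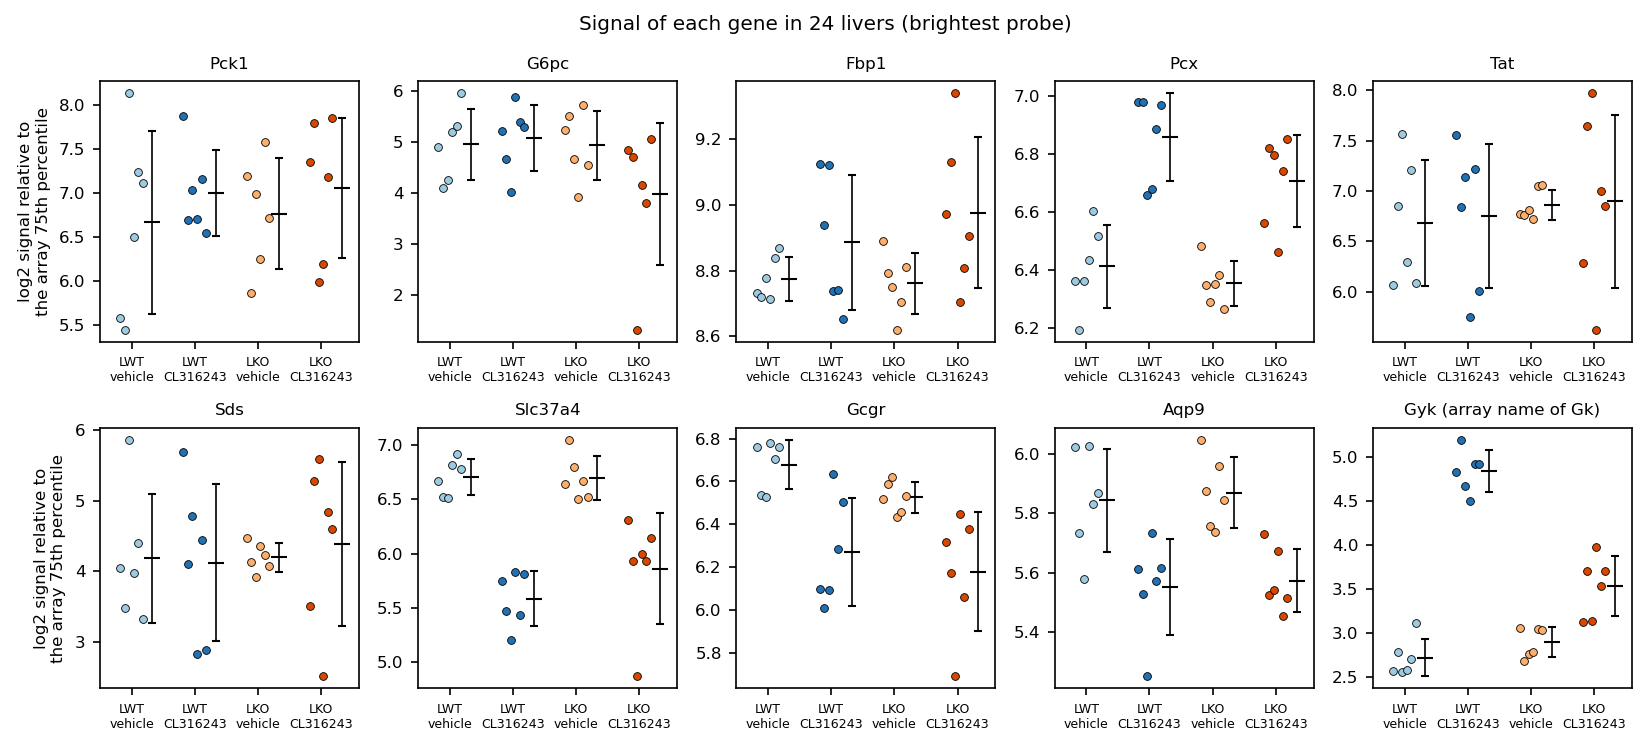
Log2 processed intensity minus the array's 75th percentile (vertical axis) in each of 24 livers, by group, for the brightest probe of each gene, with group mean and SD beside the points. Slc37a4 falls from 6.50 or above with vehicle to 6.31 or below with CL316243, while Pck1, Tat and Sds spread over 1 unit or more within LWT vehicle and within both CL316243 groups.

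Tat and Sds, the amino acid enzymes, showed no shift in mean in these data and a wide spread among mice. Tyrosine aminotransferase was 6.07, 6.57 and 7.57 (low, median, high) in LWT vehicle, 5.75, 6.99 and 7.56 in LWT CL316243, 6.72, 6.79 and 7.06 in LKO vehicle, and 5.62, 6.93 and 7.97 in LKO CL316243. LKO vehicle mice lay close together, and the other groups spread over more than 1 unit. Its difference with CL316243 was 0.07 in LWT (95% interval -0.67 to 0.81, adjusted p 0.898) and 0.03 in LKO (-0.71 to 0.77, adjusted p 0.953). The LKO value was -0.18 without LKO CL316243 replicate 3.

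Serine dehydratase was 3.33, 4.01 and 5.86 in LWT vehicle, 2.83, 4.27 and 5.68 in LWT CL316243, 3.91, 4.18 and 4.47 in LKO vehicle, and 2.51, 4.72 and 5.59 in LKO CL316243. LKO vehicle was again the group with the smallest spread, with an SD of 0.20 against 0.91 to 1.16 in the other groups. The difference with CL316243 was -0.06 in LWT (-1.12 to 0.99, adjusted p 0.939) and 0.19 in LKO (-0.87 to 1.25, adjusted p 0.791). Within slides it ran from -1.74 to 0.87 in LWT and from -0.62 to 1.43 in LKO, so its sign differed between slides. Each of these values rests on 2 mice per group, and a dependence of the effect on slide was not tested. The LKO value of Sds was -0.05 without LKO CL316243 replicate 3.

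A dim second Sds probe, 4106 bases upstream on chromosome 5 and designed on ENSMUST00000111898, behaved differently from the bright probe. It was well above background on 4 of 6 LWT vehicle arrays, 0 of 6 LWT CL316243 arrays, 6 of 6 LKO vehicle arrays and 2 of 6 LKO CL316243 arrays. The LWT signal was -5.50, -3.45 and -2.03 with vehicle and not well above background with CL316243, which makes it at least 1.91-fold lower (measured means -3.81 and -5.43, adjusted p 0.0360). In LKO the probe was -4.53, -3.74 and -2.36 with vehicle and -6.43, -5.35 and -3.49 with CL316243, a fitted difference of -1.54 (adjusted p 0.0414), with 4 of the 6 treated values below the background limit, so its size is uncertain. The groups overlapped in both genotypes, and of 24 fits that each left out 1 mouse the probe was called in 17 for LWT and in 16 for LKO.

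Gcgr, the glucagon receptor (probe on chromosome 11, 120400221 to 120400280), fell by a similar amount in both genotypes. It was 6.53, 6.73 and 6.78 in LWT vehicle and 6.01, 6.19 and 6.63 in LWT CL316243. In LKO it was 6.43, 6.53 and 6.62 with vehicle and 5.69, 6.24 and 6.45 with CL316243. The ranges overlapped slightly, and all 6 treated mice of each genotype lay below the vehicle mean. The difference was -0.41 in LWT (SE 0.11, adjusted p 0.00705, 1.33-fold lower) and -0.35 in LKO (SE 0.11, adjusted p 0.0187, 1.27-fold lower). The lowest LKO value was that of replicate 3, and without this mouse the LKO difference was -0.25 and did not pass (adjusted p 0.0549). Slides ranged from -0.60 to -0.08 in LWT and from -0.65 to -0.19 in LKO. The interaction was 0.06 (95% interval -0.27 to 0.40).

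Aqp9, the channel through which hepatocytes take up glycerol, fell slightly in both genotypes by its bright probe. This probe lies on chromosome 9 (70958495 to 70958554, minus strand). It was 5.58, 5.85 and 6.03 in LWT vehicle, 5.25, 5.59 and 5.73 in LWT CL316243, 5.74, 5.86 and 6.05 in LKO vehicle, and 5.45, 5.53 and 5.73 in LKO CL316243. The treated and untreated ranges overlapped in LWT and not in LKO. The difference was -0.29 in LWT (SE 0.09, adjusted p 0.00942, 1.22-fold lower) and -0.30 in LKO (SE 0.09, adjusted p 0.00818, 1.23-fold lower), with slides between -0.49 and -0.05 in LWT and between -0.34 and -0.27 in LKO.

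A second probe named Aqp9 moved the other way by a far larger amount. It lies 57055 bases upstream on the same strand (chromosome 9, 71015550 to 71015609) and was designed on a predicted transcript, XM_011242783. Its signal was -3.30, -3.12 and -2.98 in LWT vehicle and -2.46, 0.81 and 1.28 in LWT CL316243. In LKO it was -3.68, -3.41 and -2.78 with vehicle and -0.56, 0.46 and 1.27 with CL316243. The treated and untreated mice did not overlap in either genotype, and the probe was well above background on all 24 arrays. The difference was 3.42 in LWT (SE 0.44, adjusted p 2.86e-06) and 3.65 in LKO (SE 0.44, adjusted p 1.81e-06), with an interaction of 0.23 (95% interval -1.06 to 1.51). LWT CL316243 replicate 4 was the low value of its group, with the next mouse at 0.32. Where both probes were averaged, Aqp9 rose, by 1.57 in LWT and 1.68 in LKO.

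**Figure D3:**
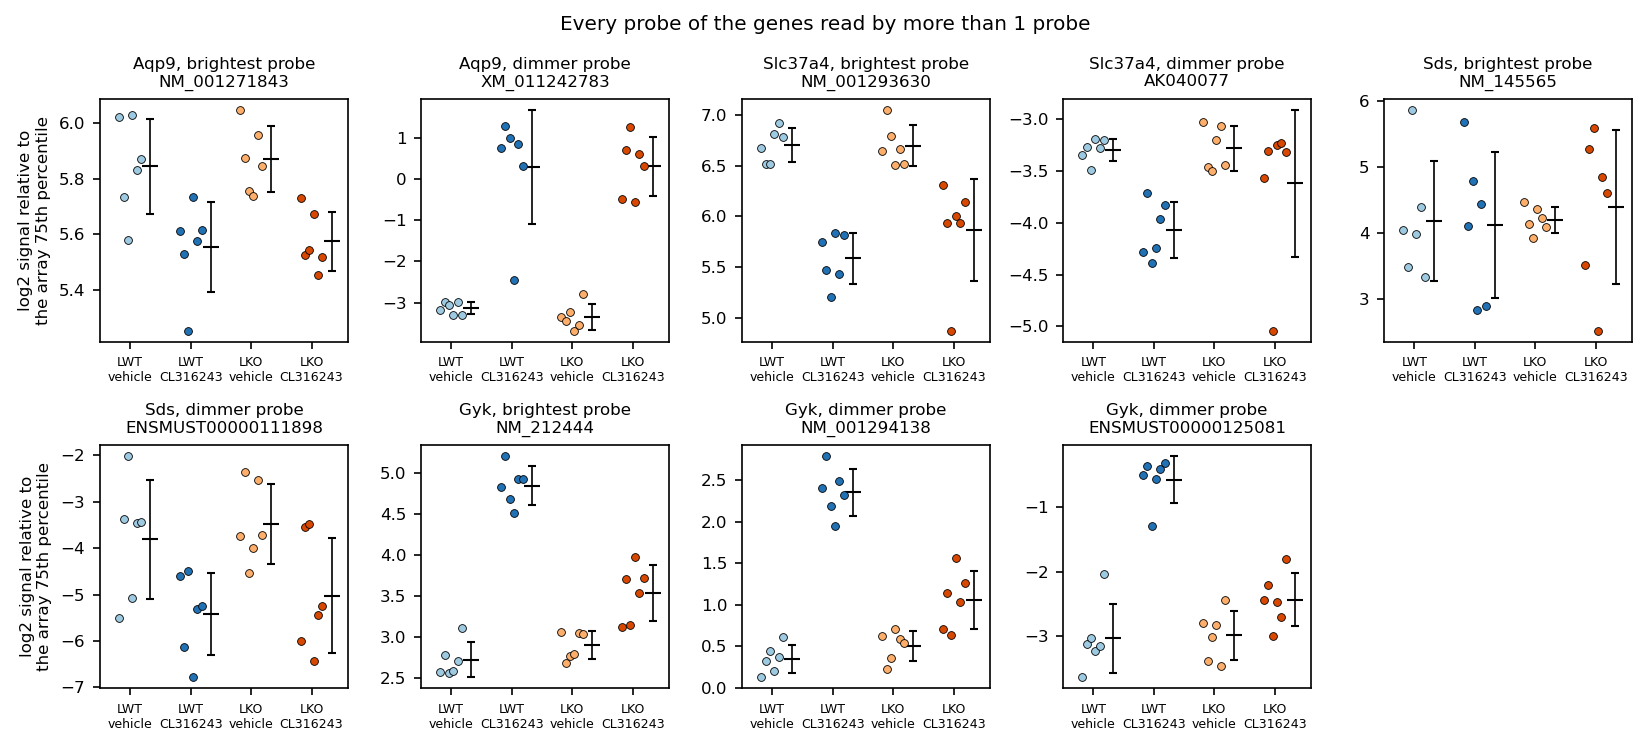
Log2 processed intensity minus the array's 75th percentile (vertical axis) in each liver by group, for every probe of the genes read by more than 1 probe, with group mean and SD. The dimmer Aqp9 probe rises from -2.78 or below with vehicle to -2.46 or above with CL316243 while the brightest one falls slightly, and the 3 Gyk probes share 1 pattern.

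Gyk, the glycerol kinase that phosphorylates glycerol on its entry to metabolism, rose in both genotypes and rose more in LWT. Its brightest probe (chromosome X, 82948091 to 82948150, minus strand) was 2.57, 2.65 and 3.12 in LWT vehicle and 4.51, 4.88 and 5.20 in LWT CL316243. In LKO it was 2.68, 2.92 and 3.06 with vehicle and 3.13, 3.62 and 3.98 with CL316243. The treated and untreated mice did not overlap in either genotype, and the treated LKO mice lay below all treated LWT mice. The difference was 2.12 in LWT (SE 0.14, adjusted p 1.89e-10, 4.35-fold) and 0.64 in LKO (SE 0.14, adjusted p 0.00103, 1.55-fold). The effects differed by -1.49 (SE 0.20, 95% interval -1.90 to -1.07, adjusted p 3.91e-05), and by -1.71 to -1.35 within slides.

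Under vehicle the genotypes did not differ in Gyk (0.18, 95% interval -0.11 to 0.47, adjusted p 0.900), and under CL316243 LKO lay 2.48-fold below LWT (log2 difference -1.31, adjusted p 3.62e-07). The other Gyk probes gave interactions of -1.46 (adjusted p 7.13e-05) and -1.91 (adjusted p 0.000874). Their LWT differences were 2.01 and 2.46. The LKO difference was 0.55 with each, called with the probe on NM_001294138 (adjusted p 0.00434) and not called with the probe on ENSMUST00000125081 (adjusted p 0.0678), which was called there in 3 of 24 fits that left out 1 mouse.

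Of 4 other genes of glycerol use (Gpd1, Gpd2, Aqp3 and Aqp7), 2 rose with CL316243 in LWT, where 18.9% of all genes were called higher. In LKO 0 of the 4 were called (limma, with 0 also at an unadjusted p under 0.05), where 40.3% of all genes were called. Under CL316243, 3 of the 4 were lower in LKO than in LWT, against 8.17% of all genes. For 2 the effects of CL316243 differed between genotypes, against 5.41% of all genes. The counts of genes that rose in LWT, were lower in LKO or differed in effect include Aqp3. Aqp3 passed the filter on dim probes only through LWT CL316243, where it is high, so it adds no independent support to them. Gpd2, the mitochondrial glycerol-3-phosphate dehydrogenase, was 0.51, 1.15 and 1.69 in LWT vehicle and 2.25, 3.03 and 3.36 in LWT CL316243, against -0.28, 0.86 and 1.33 in LKO vehicle and 0.24, 1.08 and 1.23 in LKO CL316243. The treated LWT mice lay above all others. Its difference was 1.80 in LWT (SE 0.24, adjusted p 4.45e-06) and 0.16 in LKO, and the effects differed by -1.65 (SE 0.34, adjusted p 0.00443).

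Aqp3, another aquaglyceroporin, was well above background on all 6 LWT CL316243 arrays (-3.32, -1.21 and -0.81) and on 0 of 6 arrays of each other group. It was at least 9.10-fold higher in LWT CL316243 than in LWT vehicle (measured means -1.77 and -5.58) and at least 7.67-fold higher than in LKO CL316243 (measured mean -5.70). Since Aqp3 passed the filter only through LWT CL316243, its calls in the fit are no independent support for these differences. Gpd1, the cytosolic glycerol-3-phosphate dehydrogenase, did not pass with CL316243 in either genotype (0.44 in LWT and -0.32 in LKO, SE 0.23 each) and was lower in LKO than in LWT under CL316243 by a log2 difference of -1.27 (adjusted p 0.000354). It is named because only 3 of these genes were called in that comparison. With the mean of its kept probes Gpd1 fell by 0.54 in LKO (adjusted p 0.0351) and its effects differed by -0.998 between genotypes (adjusted p 0.0387). Aqp7 did not pass in any comparison, and its LKO difference of 0.25 was called with normexp background correction (0.18, adjusted p 0.0383) and without LKO vehicle replicate 3 (0.35, adjusted p 0.0168).

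**Figure D4:**
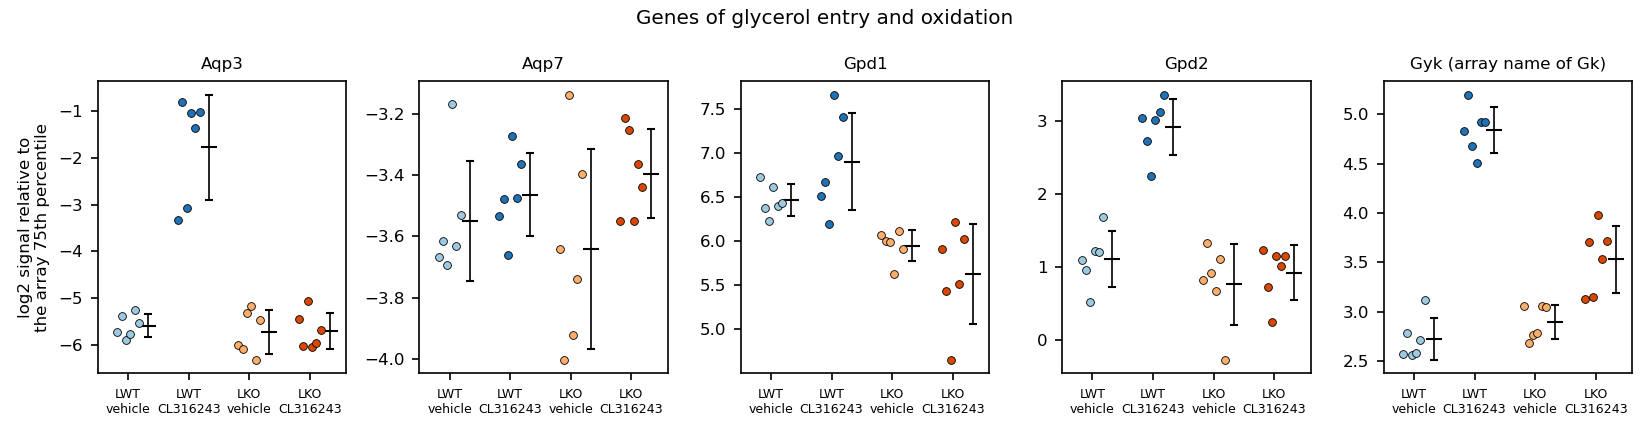
Log2 processed intensity minus the array's 75th percentile (vertical axis) in each liver by group, for Aqp3, Aqp7, Gpd1, Gpd2 and Gyk, with group mean and SD. LWT CL316243 stands above the other 3 groups for Aqp3, Gpd2 and Gyk, and Aqp3 is not well above background in those 3 groups.

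The rest of the pathway was taken from 5 lists of 73 genes in all, every one of them tested. Of the 73, 42 were called with CL316243 in LWT (23 higher, 19 lower) and 40 in LKO (20 higher, 20 lower), that is 57.5% and 54.8%, where 38.3% and 40.3% of all genes were called. Under vehicle 2 of 73 differed between genotypes (2.74%, against 1.18% of all genes), Ldha and Esrrg. Under CL316243 20 did (27.4%, against 15.9%), and 7 had a different CL316243 effect in LKO and LWT (9.59%, against 5.41%). The 7 include Aqp3 and Fbp2, which passed the filter on dim probes only through LWT CL316243. The lists were chosen with earlier results of these data known, so shares above those of all genes are no test of the pathway. Beside the counts of each list and marker set below, 18.9% of all genes were called higher and 19.4% lower in LWT. In LKO these shares were 20.9% and 19.4%. The median log2 difference of the 73 genes was 0.13 in LWT and 0.00 in LKO.

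Of 20 other genes on the way from lactate and pyruvate to glucose, enzymes and transporters alike and some shared with glycolysis, 8 rose and 3 fell in LWT. In LKO 7 rose and 5 fell. Slc16a1, a lactate and pyruvate transporter, rose by 2.14 in LWT (adjusted p 5.61e-08) and by 0.72 in LKO (adjusted p 0.00755), and these effects differed by -1.42 (SE 0.29, adjusted p 0.00439). Ldha, a lactate dehydrogenase subunit, rose by 0.84 and 0.68. Under vehicle it was lower in LKO by a log2 difference of -0.29 (adjusted p 0.0405), a call that was lost in 10 of 24 fits that left out 1 mouse. It was also lost with no filter on dim probes (adjusted p 0.134) and with slide and row in the model (0.05035). The same held with only the groups compared (0.107) and with the mean of its kept probes (0.554). With that mean the Ldha interaction was called (-0.63, adjusted p 0.0180). Slc2a2, the glucose transporter of the hepatocyte membrane, fell by 0.85 in LWT (adjusted p 0.00566) and by 1.15 in LKO (adjusted p 0.000419). Fbp2, the muscle form of fructose bisphosphatase, was well above background on 4 of 6 LWT CL316243 arrays and on none of the other 18. This makes it at least 1.28-fold higher in LWT CL316243 than in LWT vehicle (measured means -4.62 and -7.19). Fbp2 passed the filter on dim probes only through LWT CL316243, where it is high. Its calls with CL316243 in LWT and for the interaction are therefore no independent support, though the counts include them. Got2, the mitochondrial aspartate aminotransferase, had an effect of 0.13 in LWT, which did not pass, and fell by 0.18 in LKO (adjusted p 0.0303). Their difference of -0.32 passed narrowly (adjusted p 0.0468) and was lost when any of 19 of the 24 mice was left out and in 5 of 10 other settings of the processing. The LKO call of Got2 was lost when any of 6 mice was left out and with no filter on dim probes.

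Of 16 genes of amino acid supply, 4 rose and 5 fell in LWT, and 3 rose and 6 fell in LKO. Hal, the enzyme that opens histidine breakdown, fell by 2.30 in LWT (adjusted p 3.54e-07) and by 1.20 in LKO (adjusted p 0.000660). Prodh, proline dehydrogenase, fell by 0.78 and 0.76. Sdsl, a relative of Sds, rose by 1.08 in LWT (adjusted p 0.0144) and 1.37 in LKO (adjusted p 0.00266). Slc38a2, a carrier of neutral amino acids, rose by 1.14 and 1.49, and the LWT value was lost in 5 of 24 analyses that left out 1 mouse. Tdo2, which opens tryptophan breakdown, rose by 0.95 in LWT (adjusted p 0.000482) and had an effect of -0.19 in LKO that did not pass, and these effects differed by -1.14 (SE 0.27, adjusted p 0.0147).

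All 5 genes of the opposing glycolytic steps were tested, and 3 fell and 0 rose in each genotype. Without LKO CL316243 replicate 3, 4 fell in LWT and 2 in LKO. Pfkfb1, the bifunctional enzyme that sets fructose-2,6-bisphosphate, fell by 0.92 and 1.12.

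Of 28 genes of the glucagon and cyclic AMP signal and its regulators, 9 rose and 8 fell in LWT, and 10 rose and 6 fell in LKO. Without LKO CL316243 replicate 3 these were 12 and 9 in LWT, and 9 and 6 in LKO. Igfbp1, an insulin-repressed binding protein, rose by 3.64 in LWT (adjusted p 0.000176) and by 4.53 in LKO (adjusted p 1.85e-05). Irs2, an adaptor of the insulin receptor, rose by 2.88 and 1.89. Nr4a1, an immediate early nuclear receptor, rose by 0.99 in LWT (adjusted p 0.0230) and by 2.57 in LKO (adjusted p 4.76e-06), and the LWT value was 0.76 and not called without LWT CL316243 replicate 1 (adjusted p 0.0697). Klf15, a factor of amino acid breakdown, fell by 1.15 in LWT (adjusted p 0.000280) and 1.37 in LKO (adjusted p 4.51e-05).

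Ppargc1a, a coactivator of gluconeogenic genes, was the 1 regulator called for the interaction. It fell by 1.47 in LWT (SE 0.40, adjusted p 0.00513), while the LKO value of 0.62 did not pass, and these effects differed by 2.09 (SE 0.56, adjusted p 0.0282). Means were 0.31 and -1.16 in LWT and -0.13 and 0.49 in LKO, with vehicle and CL316243. The interaction was lost in 4 of 24 analyses that left out 1 mouse, where the adjusted p reached 0.0530, and with no filter on dim probes (0.0610). The Nr4a1 interaction was 1.58 (adjusted p 0.0534) and was called in 6 of 10 other settings of the processing, where its adjusted p ran from 0.0389 to 0.111. Esrrg, a nuclear receptor of the cyclic AMP response, was at least 2.75-fold lower in LKO than in LWT under vehicle (measured means -6.21 and -3.40, adjusted p 0.00285). This holds for 1 dim probe. With no filter on dim probes another Esrrg probe stood for the gene, and the difference was -0.62 and not called (adjusted p 0.997).

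Marker lists of other liver cells were measured on the same arrays, each as a sum of its genes' levels relative to the 75th percentile. With CL316243, 3 of 5 neutrophil markers (S100a8, S100a9 and Retnlg) rose in both genotypes, while Ly6g fell in LWT and Mpo was not called. The neutrophil sum ranged over 1.89 to 5.13 with vehicle and 1.99 to 13.5 with CL316243 in LWT mice. In LKO mice it ranged over 2.02 to 3.18 and 3.44 to 47.1. Of 5 cholangiocyte markers, Sox9 rose in both genotypes and Spp1 in LKO, with Krt19, Krt7 and Epcam not called. The cholangiocyte sum ranged over 3.67 to 6.47 and 4.19 to 14.1 in LWT mice, and over 3.51 to 6.70 and 7.08 to 14.1 in LKO mice. Of 6 endothelial markers, Lyve1 rose in both genotypes by 1.18 and 2.39, Kdr fell in both by 0.40 and 0.56, and Pecam1 rose in LWT. Their sums overlapped in all groups (34.6 to 48.5). Of 6 stellate cell markers, Dcn rose slightly in both genotypes and Lrat fell in LWT, with sums of 41.6 to 62.2 over the vehicle mice and 54.5 to 73.4 over the treated mice. No macrophage marker of 7 was called in either genotype (limma, 0 also at an unadjusted p under 0.05), and the macrophage sum was 50.2 to 97.5 over all groups. Of 3 tested lymphocyte markers, 1 fell in LWT, and 1 rose and 1 fell in LKO. The lymphocyte sum was 1.88 to 2.75, with Cd8a and Cd79a below the filter, and the adipocyte sum was 0.56 to 1.67, with Adipoq below it. The pancreatic genes Prss1 and Ins2 were below the filter as well. The sum of the other 2 pancreatic genes, Cela1 and Amy2a5, was 23.7 to 33.8 with vehicle and 20.2 to 34.1 with CL316243 in LWT mice, and in LKO mice it was 33.1 to 39.9 and 23.9 to 32.0, which did not overlap. The hepatocyte sums overlapped in all groups. Of the 5 hepatocyte markers tested, 0 were called with CL316243 in LWT, and 1 rose and 1 fell in LKO. The part of these cells in the changes of the 9 genes and of Gyk was not tested.

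The mice of a group varied together for some of these genes. Each mouse's deviation from its group mean was compared between genes over the 24 mice, for 45 pairs of the 9 genes and Gyk, with labels permuted within groups 100000 times. By the Benjamini-Hochberg adjustment over the 45 pairs, 12 Pearson correlations had an adjusted p under 0.05. Of these, Fbp1 with Tat, Sds and Gcgr did not pass by Spearman rho (adjusted permutation p 0.0554, 0.098 and 0.071). The share of correlated pairs among all genes was not computed, so these values do not say whether the count is particular to this list. Among 14040 genes outside it, Zfp36 varied as closely with Tat (r = 0.91 for deviations from group means). Tat and Sds varied most closely, with r = 0.91 (rho = 0.85, permutation p 1e-05 and 2e-05, adjusted 0.00045 and 0.0009), where 1e-05 is the smallest value the permutations can give. Within slides of 8 mice r was 0.97, 0.53 and 0.92, and without the 2 mice farthest from the median it was 0.87.

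G6pc and its transporter partner Slc37a4 had r = 0.87 (rho = 0.76, permutation p 7e-05 and 0.00014, adjusted 0.00157 and 0.00225). It was 0.93, 0.92 and 0.42 within slides, 0.70 without the 2 farthest mice and 0.72 without LKO CL316243 replicate 3. Gcgr varied with Slc37a4 (r = 0.78, rho = 0.74, permutation p 0.00051 and 0.00015, adjusted 0.00459 and 0.00225), with 0.94, 0.80 and 0.24 within slides and 0.61 without the 2 farthest. Gcgr varied against Tat, with r = -0.79 (rho = -0.75, permutation p 0.00028 and 0.00054, adjusted 0.00315 and 0.00608), with -0.89, -0.68 and -0.80 within slides and -0.71 without the 2 farthest. Pck1 and G6pc, both gluconeogenic enzymes, had r = 0.41 (rho = 0.43, permutation p 0.0673 and 0.048, adjusted 0.170 and 0.114), 0.40, 0.49 and 0.53 within slides, 0.51 without the 2 farthest and 0.25 without LKO CL316243 replicate 3.

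**Figure D5:**
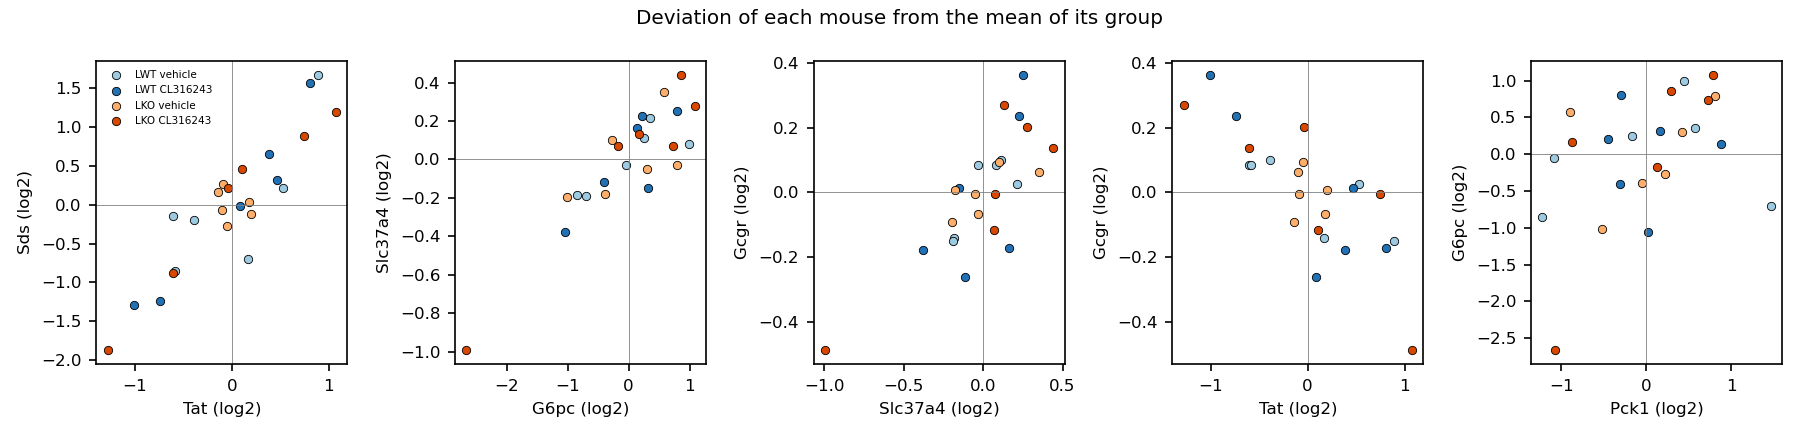
Deviation of each of 24 mice from its group mean (log2, both axes) for 5 pairs of genes, coloured by group. Tat and Sds lie along a rising line (r = 0.91), Tat and Gcgr along a falling one (r = -0.79), and the LKO CL316243 mouse at the lower left of G6pc against Slc37a4 is replicate 3.

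The genes most like each gene were taken by Pearson r over the 24 arrays among 14040 genes with an ordinary gene name, a measure that includes the response to treatment and has no test here. Slc37a4 was most like Mast3 and Aamdc (r = 0.96 each), Aqp9 most like Ppp3ca (0.95) and Tmem223 (0.91), and Gcgr most like Ankrd24 and Adh6-ps1 (0.94 each). Pcx was most like Gsk3a (0.93) and Cpt1a (0.92), and Gyk most like Acot2 and Tmem56 (0.97 each, with Acot2 at 0.57 for deviations from group means). Fbp1 was most like Acvr1b and Papd4 (0.88 each), Tat most like Zfp36 (0.88) and Atp6v1g1 (0.84), and Sds most like Etnk2 (0.88) and Slc7a2 (0.82). G6pc was most like Ppap2b (0.86) and Ak4 (0.85), and Pck1 most like Il15ra and Fam35a (0.76 each). Mast3 fell by 1.65 in LWT and 1.33 in LKO, and Acot2 rose by 6.97 in LWT and 1.73 in LKO. Zfp36 and Etnk2, like Tat and Sds, did not pass in either genotype.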

How the data were processed

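Liver RNA of 24 mice (4 groups of 6, 200 ng of RNA per mouse) was measured on 1-colour arrays. The scanner tables hold intensities on a linear scale, with marks for spots well above background, saturated or outlying. Per the file headers, the authors made these intensities with Feature Extraction 10.10.1.1 with its spatial and multiplicative detrending switched on. The authors also deposited 1 table of log2 values for the series. These matched quantile-normalized log2 median signals (99.3% of values within 0.01 over 31367 probes), 0 of its columns lacked a sample, and it served as an alternative. Probe positions come from the array's own annotation (mm9).

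Outlier spots were removed, spots of a probe averaged, and log2 processed intensity was centred on the 75th percentile of each array. Probes had to be well above background on 4 or more of the 6 arrays of some group and to hold 3 or more values per group. This filter kept 32037. The brightest of these stood for its gene (21331 genes), and all were fitted separately. Group means were fitted with limma 3.58.1 (R 4.3.3) over all 24 arrays together, with Benjamini-Hochberg adjustment over all genes within each comparison and calls at an adjusted p under 0.05. The fit was tested on simulated data. A probe with no array of a group well above background has only a bound there. Its level was taken, array by array, as its own signal or the lowest signal well above background, whichever was higher, and the fold against it is written "at least".

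The text names the genes of the list in every comparison, the 2 genes most like each, and list genes called for the interaction. Other pathway genes were taken from the 2 with the largest called change in each direction per list and comparison, and not all of these are named. The genes, the lists and these rules were chosen with earlier results of these data known. Replicate numbers were not used to pair the mice: deviations of mice with the same number correlated by -0.18 to 0.42 and exceeded 0.1 in 6 of 24 cases. Mice with different numbers were not compared in this way, so these values cannot show whether the numbers pair mice. The number of arrays limits the precision, and the median SE of a difference was 0.13 (0.19 for the interaction). The labels do not say whether the mice of a group were littermates or shared a cage. The p-values measure the spread between these mice, and an effect of a shared litter or cage could not be told apart from that of the group.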

Additional observations from a re-analysis of the deposited data

Results flagged for a closer look

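LKO CL316243 replicate 3 lay far from the other 5 mice of its group for G6pc (1.31, nearest mouse 3.80) and for both Slc37a4 probes (4.87, nearest 5.93, and -5.04, nearest -3.57). LWT CL316243 replicate 4 lay far below its group for the second Aqp9 probe (-2.46, nearest 0.32), and LWT CL316243 replicate 3 for the dimmest Gyk probe (-1.28, nearest -0.56). Of 60 groups of 6 values examined, 5 held such a mouse, and chance flags about 1 in 20 groups.

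The effect of CL316243 differed between genotypes by the interaction in limma for Gyk with each of its 3 probes (-1.49, -1.46 and -1.91; adjusted p 3.91e-05, 7.13e-05 and 0.000874). In the pathway lists it differed for Gpd2 (-1.65, adjusted p 0.00443), Slc16a1 (-1.42, adjusted p 0.00439), Tdo2 (-1.14, adjusted p 0.0147), Got2 (-0.32, adjusted p 0.0468) and Ppargc1a (2.09, adjusted p 0.0282). The interaction was also called for Aqp3 (fitted -3.79) and Fbp2 (fitted -2.42). For these last genes 3 groups were not well above background, so the fitted sizes are no measured folds. Both genes passed the filter only through LWT CL316243, where they are high, so their calls are no independent support.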

How the results depend on the processing

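Requiring a 1.5-fold change left 1 gene in LWT and 1 in LKO, Slc37a4 both times. Counting Gyk as Gk, an alternative added after seeing the data, gave 1 gene called between genotypes under CL316243 and 1 for the interaction. Leaving out each mouse gave 4 to 4 genes in LWT, 3 to 5 in LKO, 0 to 0 between genotypes under vehicle, 0 to 1 under CL316243 and 0 to 0 for the interaction. Averaging all kept probes turned Aqp9 to 1.57 in LWT and 1.68 in LKO, since this setting adds the second probe. With no filter on dim probes, the difference of Esrrg between genotypes under CL316243 was 0.0289 and not called. In this setting another Esrrg probe, one that had not passed the filter, stood for the gene. That setting moved the median of all genes to 0.11 in LWT and 0.10 in LKO. Quantile normalization, background correction by normexp, the deposited series table, a stricter filter, slide or slide and row in the model, only the groups compared (not run for the interaction) and trended, robust moderation left the same calls for the 9 genes, where a change of sign in a value not called was not counted. With the replicate block the calls were again 4 in LWT, 4 in LKO and 0 in the other comparisons, while genes called in LWT went from 8180 to 8309. Over all genes, the 1.5-fold requirement left 3801 of 8180 calls in LWT, 3885 of 8596 in LKO and 1627 of 3393 between genotypes under CL316243. With no dim filter, which adds genes to the adjustment, 167 against 251 were called between genotypes under vehicle and 664 against 1153 for the interaction, and fitting only the groups compared gave 2203 calls under CL316243 against 3393. The spread among mice limits Pck1, G6pc, Tat and Sds, with SE from 0.36 to 0.51.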
